A study of Danio rerio with 2 samples.

Results

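Corticotropes are the pituitary cells that make the adrenocorticotropic hormone (ACTH), and they are described here from the pituitaries of gnrh3-/- and WT female zebrafish. Their members are the cells that the authors deposited under the label Corticotropes, which is their cluster 9. They numbered 460 of the 6988 cells of the study, with 274 of 4794 cells in the gnrh3-/- library and 186 of 2194 cells in the WT library. The study asked what lets the female pituitary make gonadotropins without GnRH and what Gnrh3, a hypothalamic peptide, does there. The gnrh3-/- females carried the mutation in all cells. The WT females were their gnrh3+/+ siblings. All fish were 3 months old, had been chosen as sexually mature after spawning with WT males, and were dissected 1 h before lights on. For each genotype 5 pituitaries were pooled, dissociated with enzymes and made into 1 droplet library, so that the genotype, the library and the spread between animals cannot be told apart. Fewer cells of a type and poorer capture of that type cannot be told apart either.

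Corticotropes and melanotropes share a precursor, pro-opiomelanocortin, which zebrafish make mostly from the gene pomca. In corticotropes the precursor is cut to ACTH, which drives the making of cortisol by the interrenal gland, the fish counterpart of the adrenal cortex. In melanotropes it is cut further to alpha-MSH, which acts on pigment cells. Corticotropin-releasing hormone (CRH) from the hypothalamus stimulates the corticotropes, and cortisol acts back on them through glucocorticoid receptors.

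The level of a gene is its number of unique molecular identifiers (UMIs) summed over the cells of a type in 1 library and scaled to 10000 UMIs of that sum over all genes. Corticotropes held 1555446 UMIs in the gnrh3-/- library and 1272189 in the WT library, with a median of 4230.5 UMIs per cell in gnrh3-/- and 6480.5 in WT. A count of 3 UMIs, used as the limit for a gene with no UMI, is a level of 0.0193 in gnrh3-/- corticotropes and 0.0236 in WT corticotropes. Intervals given are 95% intervals for counting error only. A gene is called higher or lower when its level differed at least 2-fold in the same direction in both libraries, with at least 20 UMIs over the cells compared in each library. These calls describe a cluster that the authors defined from the same counts, so they are no test.

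Corticotropes made up 5.72% of the cells in the gnrh3-/- library (exact binomial interval 5.08 to 6.41%) and 8.48% in the WT library (7.35 to 9.72%). Shares of cells depend on which cells survived dissociation and capture in each pool. In 13 gnrh3-/- corticotropes (4.74%) and 2 WT corticotropes (1.08%), the hormone gene of another pituitary type held over 5% of the UMIs. Their median depth was 14445 UMIs in gnrh3-/- against 4100 UMIs for the other gnrh3-/- corticotropes, and 10322.5 UMIs in WT against 6458 UMIs for the other WT corticotropes. No doublet caller was run, and these cells were kept unless stated. The whole list of 9 hormone genes of other types summed to a level of 258 in gnrh3-/- corticotropes and 52.8 in WT corticotropes. Of the lists for cells outside the endocrine types, the 10 endothelial markers had 0 UMIs in corticotropes of either library, the 10 immune markers had 8 UMIs in gnrh3-/- and 5 in WT, and the 9 fibroblast markers had 14 UMIs in gnrh3-/- and 5 in WT. Red blood cell markers had 22 UMIs in gnrh3-/- corticotropes and 1 UMI in WT corticotropes. The 10 glial markers had 1541 UMIs in gnrh3-/- and 1217 in WT corticotropes, of which glula, a glutamine synthetase gene that many cells use, held 1402 in gnrh3-/- and 1041 in WT. For gnrh3 itself, 0 UMIs were counted in gnrh3-/- corticotropes and 1 in WT corticotropes, so that the corticotrope counts are no check of the genotype labels.

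The markers of the label were found in both libraries. The gene pomca had a level of 2298 in gnrh3-/- corticotropes and 2205 in WT corticotropes. All other cells together, melanotropes included, had 94.4 in the gnrh3-/- library and 146 in the WT library. Next after both pomca types were the isl1+ cells, with 102 in gnrh3-/- and 136 in WT, and the other types shown in the heat map were at or below 29.4 in gnrh3-/- and 3.62 in WT. Free RNA carried much pomca, since barcodes with 10 to 100 UMIs outside the cells had a pomca level of 409 in the gnrh3-/- library and 304 in the WT library. In melanotropes the level was higher than in corticotropes, at 3829 in gnrh3-/- melanotropes and 4051 in WT melanotropes. The log2 ratio of corticotropes over melanotropes was −0.74 in the gnrh3-/- library and −0.88 in the WT library, which is below the 2-fold limit in both. With pomca and the other hormone genes left out of the total, it was −1.05 in gnrh3-/- and −1.26 in WT, past that limit in both. Per cell, pomca took a median of 22.8% of the UMIs in gnrh3-/- corticotropes (quartiles 18.7 and 27.5%) and 21.8% in WT corticotropes (17.9 and 25.7%). In melanotropes the median was 38.0% in gnrh3-/- (32.7 and 42.8%) and 39.5% in WT (32.2 and 45.0%). The upper quartile of the corticotropes thus lay below the lower quartile of the melanotropes in each library, while the ranges overlapped, with corticotropes reaching 42.1% in gnrh3-/- and 36.0% in WT.

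**Figure D1:**
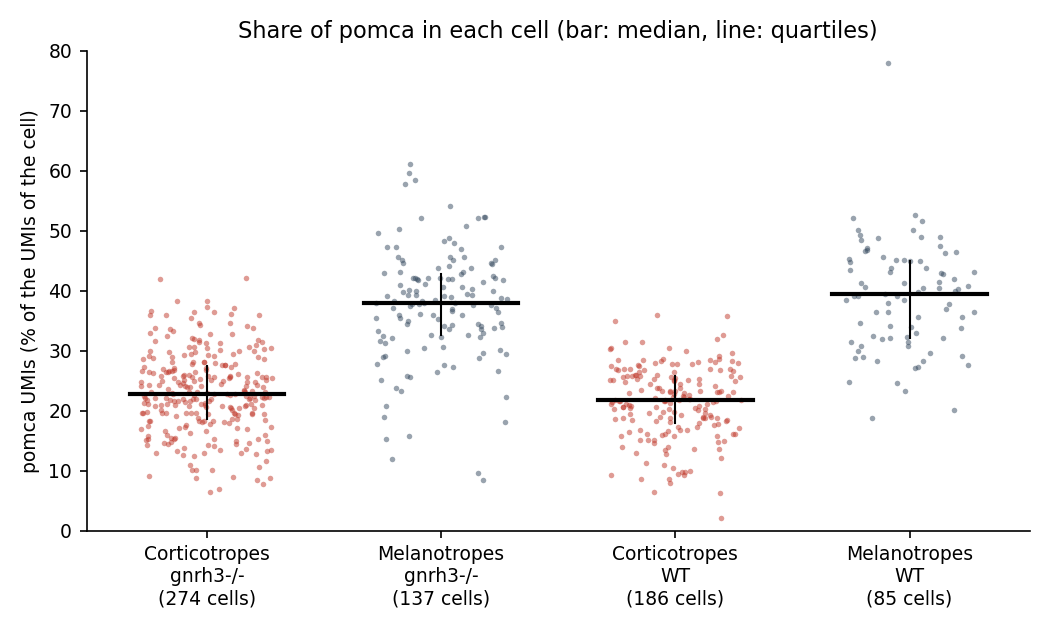
Share of pomca in the UMIs of each cell (%, vertical axis) in corticotropes (red) and melanotropes (dark blue) of the gnrh3-/- library (left) and the WT library (right). Each point is a cell, the thick bar is the median and the thin line spans the quartiles. The medians are 22.8% and 38.0% in the gnrh3-/- library and 21.8% and 39.5% in the WT library, with the corticotropes lower than the melanotropes in each.

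The second marker, drd4-rs, encodes a receptor of the dopamine D4 type. Its level was 6.02 in gnrh3-/- corticotropes and 5.27 in WT corticotropes, against 0.579 in gnrh3-/- melanotropes and 0.524 in WT melanotropes. This made log2 ratios over melanotropes of 3.38 in gnrh3-/- and 3.33 in WT. The next types were the LH gonadotropes, with 1.92 in gnrh3-/- and 2.63 in WT, and the FSH gonadotropes, with 1.43 in gnrh3-/- and 1.53 in WT. When each cell was thinned at random to 2000 UMIs, 67.4% of gnrh3-/- corticotropes and 56.8% of WT corticotropes had a UMI of drd4-rs. The same share was 9.63% of gnrh3-/- melanotropes and 8.33% of WT melanotropes, and 10.6% of the remaining cells in each library, gonadotropes included. Thinning left out 16 gnrh3-/- and 3 WT corticotropes, and 2 gnrh3-/- and 1 WT melanotropes, that had fewer UMIs. Genes with at least 20 corticotrope UMIs in each library were ranked by their pattern over the 28 levels of the 14 types and 2 libraries. That minimum rested on corticotropes alone, where drd4-rs was highest. The 5 genes most like drd4-rs were cap2 with a Pearson r of 0.885, grid1b with 0.850, SERP1 with 0.834, syngr1a with 0.818 and adgra1a with 0.808. The 28 points share libraries, depths and the gonadotropes, and the values are a description.

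Over the whole transcriptome, 13652 genes could be compared with all other cells, and 1587 of them (11.6%) were higher and 1177 (8.62%) lower in corticotropes. The median log2 ratio of all these genes was 0.08 in gnrh3-/- and 0.10 in WT. The UMI minimum applied to corticotropes and all other cells together, and only 4474 genes had at least 20 corticotrope UMIs in each library. A call against all other cells can thus rest on few corticotrope UMIs. The balance of the calls moved with the scaling. Of the genes called, 57.4% were higher, and the share was 36.5% with the mean of per-cell levels, 36.0% with the trimmed mean of M values (TMM), 47.9% with a total without the hormone genes, 48.3% after thinning and 34.7% when the other types had equal weight. Those settings moved the median of all genes by between −0.13 and −0.37 on the log2 scale.

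The 20 genes that stood farthest above all other cells were led by dkk1b, an inhibitor of Wnt signalling. It had a level of 4.04 in gnrh3-/- corticotropes and 2.80 in WT corticotropes, against 0.00916 in other gnrh3-/- cells and 0.00145 in other WT cells. No UMI of dkk1b was counted in melanotropes of either library. For gdpd3b the levels were 4.98 in gnrh3-/- and 2.04 in WT corticotropes, against 0.0117 and 0.00338 in the other cells of the gnrh3-/- and WT libraries. The most abundant of the 20 was si:dkey-14d8.6, a gene without a name for its product in the files. Its level was 88.1 in gnrh3-/- and 161 in WT corticotropes, against 0.297 in other gnrh3-/- cells and 0.0806 in other WT cells. At 2000 UMIs per cell, 98.1% of gnrh3-/- corticotropes and 97.8% of WT corticotropes had a UMI of it, against 3.70% of gnrh3-/- melanotropes and 2.38% of WT melanotropes. The others of the 20 included gad2, which encodes an enzyme that makes the transmitter GABA, the parvalbumin gene pvalb9, the fatty acid binding protein gene fabp11b, the adhesion molecule gene esamb, otofa, the gene of the exocytosis protein otoferlin, and hsd11b2.

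In 414 of 4474 genes with at least 20 corticotrope UMIs in each library, the corticotropes had the highest level of all 14 types in both libraries. The level was at least 2-fold above the next highest observed level in both libraries for 140 of these genes. Types with few UMIs in all and none of the gene, such as the undetermined cells, set no close limit to such a ratio. The UMI minimum here rested on corticotropes alone, so a gene of low level passed more readily when it was high in them. The counts of 414 and 140 are thus no share of all genes and no measure of how particular corticotropes are. Among the 15 genes ranked first were receptor genes of gut and brain peptides. The gastrin-releasing peptide receptor gene grpr had 62 UMIs in gnrh3-/- corticotropes (level 0.399) and 71 in WT corticotropes (0.558), against 1 UMI in all other gnrh3-/- cells and 0 in all other WT cells. For ntsr1, the gene of a neurotensin receptor, there were 68 UMIs in gnrh3-/- (0.437) and 61 in WT corticotropes (0.479), against 3 UMIs in all other gnrh3-/- cells and 0 in all other WT cells. Neither receptor gene had a UMI in melanotropes. Also among the 15 were rtn4rl2a, a Nogo receptor related gene, nr4a2a, an orphan nuclear receptor gene, the small heat shock protein gene hspb7, the thrombospondin gene thbs3a, flrt2.1, gad2 and the extracellular matrix gene tnc. For gad2 the level was 3.21 in gnrh3-/- and 7.84 in WT corticotropes. After thinning, 33.7% of gnrh3-/- and 54.6% of WT corticotropes had a UMI of gad2, against 0.247% of the remaining gnrh3-/- cells and 0.373% of the remaining WT cells, melanotropes aside. In melanotropes 1 UMI of gad2 was counted in gnrh3-/- and 0 in WT. The gene of gastrin-releasing peptide itself, grp, had a level of 2.38 in gnrh3-/- and 4.13 in WT corticotropes, against 2.67 in gnrh3-/- and 3.87 in WT melanotropes.

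**Figure D2:**
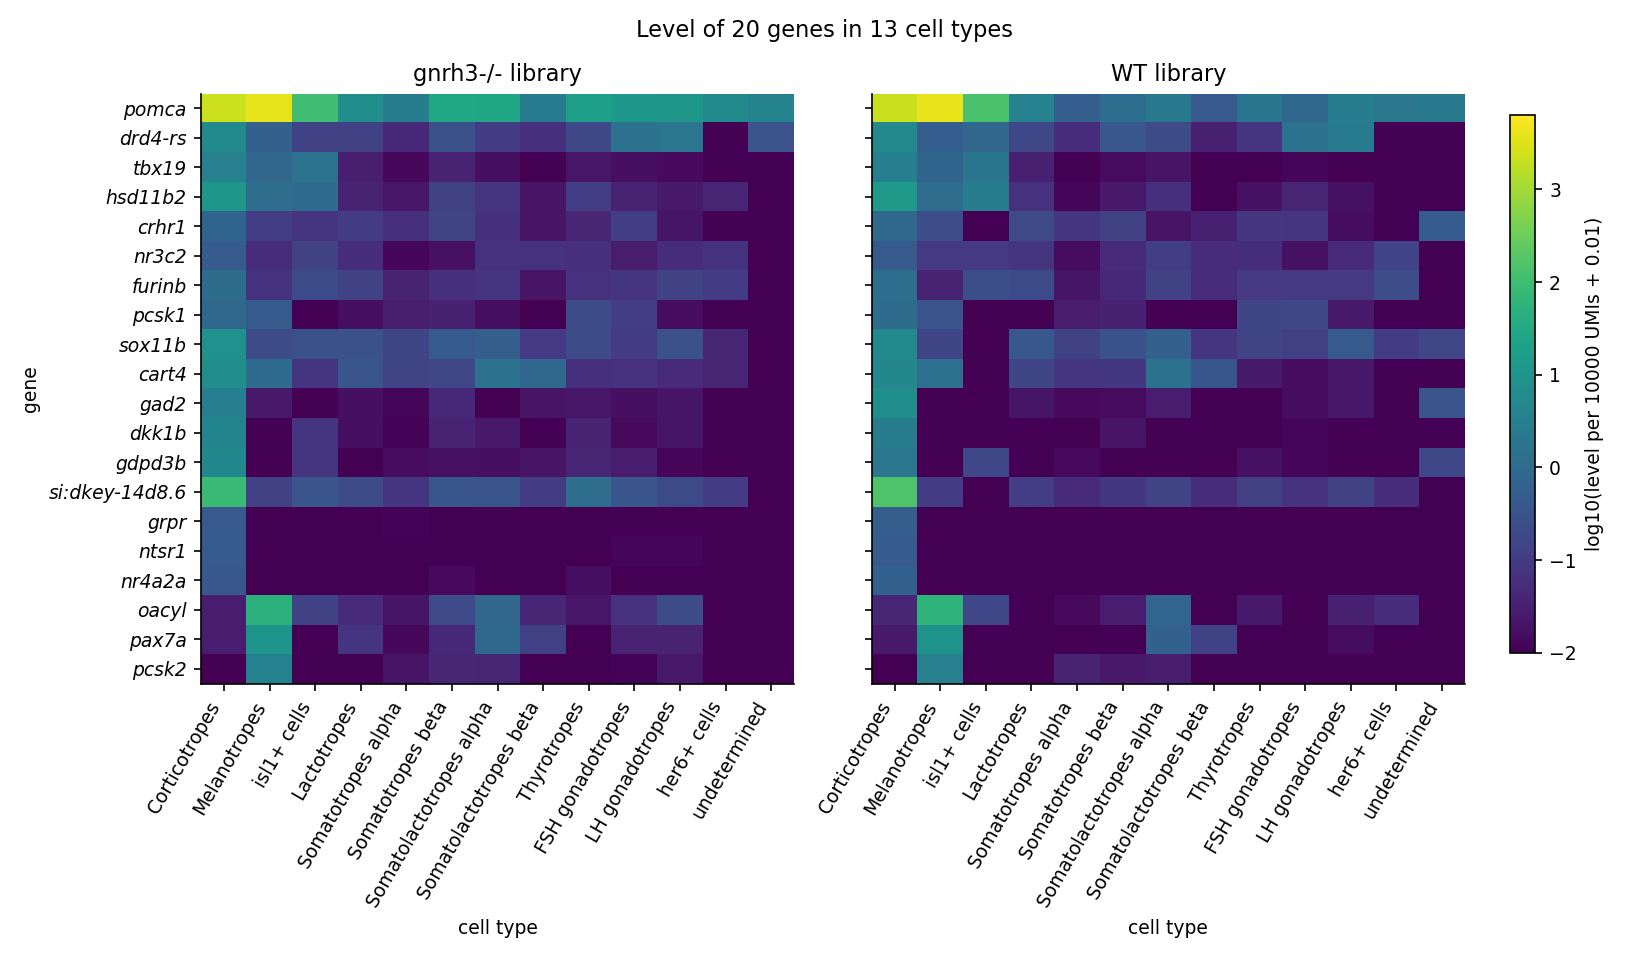
Heat map of the level of 20 genes (rows) in 13 cell types (columns) in the gnrh3-/- library (left) and the WT library (right), as log10 of the level per 10000 UMIs plus an offset of 0.01. Corticotropes are the first column and melanotropes the second. The genes grpr, ntsr1 and nr4a2a are near the lowest colour in all columns but that of the corticotropes, and oacyl, pax7a and pcsk2 are high in the melanotropes and near the lowest colour in the corticotropes.

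Set directly against melanotropes, 5700 genes could be compared, of which 1024 (18.0%) were higher and 219 (3.84%) lower in corticotropes. The median log2 ratio was 0.42 in gnrh3-/- and 0.45 in WT, and with pomca and the other hormone genes left out of the total it was 0.11 in gnrh3-/- and 0.07 in WT, so that ratios over melanotropes are to be read against that shift. With that total, 67.0% of the genes called were higher, against 82.4% as given above. The UMI minimum applied to corticotropes and melanotropes together. Corticotropes held more UMIs, with 1555446 against 673461 in gnrh3-/- and 1272189 against 725567 in WT. A gene of low level thus passed more readily when it was high in corticotropes. With a minimum of 5 UMIs, 69.5% of the genes called were higher. Calls and medians over melanotropes, here and for the lists below, describe only the genes that passed. Across 15746 genes, the levels of corticotropes, taken on a log scale, had a Pearson r of 0.879 in gnrh3-/- and 0.869 in WT with melanotropes, and 0.876 in gnrh3-/- and 0.855 in WT with thyrotropes, the next closest type. Genes are not independent replicates, and the values carry no p.

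The 20 genes highest over melanotropes included si:dkey-14d8.6, si:dkeyp-118a3.2, dkk1b, pvalb9, gdpd3b and gad2, which are also among the 20 highest over all other cells. The gene myh9a, for a heavy chain of non-muscle myosin, had a level of 2.10 in gnrh3-/- and 2.37 in WT corticotropes and 0 UMIs in melanotropes of either library, which is at least 47.1-fold higher in gnrh3-/- and at least 57.4-fold higher in WT. For rasd1, a Ras-like gene known in mammals as induced by dexamethasone, the levels were 22.2 in gnrh3-/- and 16.4 in WT corticotropes, against 0.579 in gnrh3-/- and 0.345 in WT melanotropes. The redox genes txn (thioredoxin) and fdx1 (a ferredoxin that passes electrons to mitochondrial cytochrome P450 enzymes) had log2 ratios of 5.72 in gnrh3-/- and 5.46 in WT for txn, and 5.31 in gnrh3-/- and 5.51 in WT for fdx1.

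Of the 20 genes lowest relative to melanotropes, oacyl came first, with 3 UMIs in gnrh3-/- and 4 in WT corticotropes, against levels of 52.2 in gnrh3-/- and 59.8 in WT melanotropes. The log2 ratio was −11.40 in gnrh3-/- (counting interval −13.68 to −9.85) and −10.89 in WT (−12.77 to −9.54). The second was pax7a, whose mammalian counterpart selects the melanotrope fate in the mouse. It had 3 UMIs in gnrh3-/- and 2 in WT corticotropes, against levels of 10.2 in gnrh3-/- and 9.65 in WT melanotropes, and its log2 ratio was −9.04 in gnrh3-/- (−11.32 to −7.49) and −9.26 in WT (−12.31 to −7.40). The third, pcsk2, is given below with the processing enzymes. The others included the small heat shock protein gene hspb6, fgf8a, the cytokine gene clcf1, tmeff2a, tbx22, the neurotrophic receptor gene gfra1b and slit3. The homeobox gene vax1 had 6 UMIs in gnrh3-/- and 0 in WT corticotropes, against levels of 4.42 in gnrh3-/- and 6.02 in WT melanotropes. The thyrotropin-releasing hormone receptor gene trhra had no UMI in corticotropes, which is at least 29.3-fold lower in gnrh3-/- and at least 18.7-fold lower in WT than in melanotropes.

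**Figure D3:**
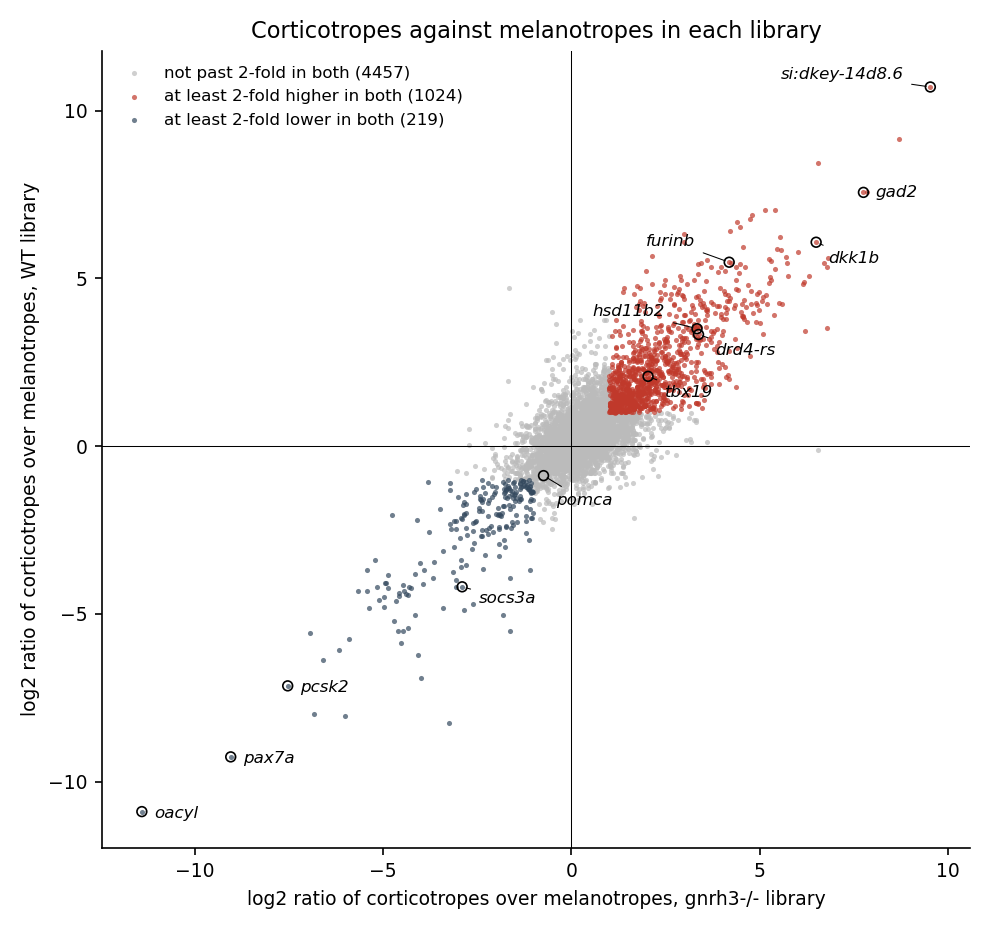
Log2 ratio of the level in corticotropes over melanotropes for 5700 genes, in the gnrh3-/- library (horizontal axis) and the WT library (vertical axis), with genes that have no UMI in a set drawn at the limit of 3 UMIs. Red points are the 1024 genes at least 2-fold higher in corticotropes in both libraries and dark blue points the 219 at least 2-fold lower. The gene pomca lies near the centre, while si:dkey-14d8.6 is at the upper and oacyl at the lower end.

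Among the transcription factors of the pituitary, tbx19 activates the POMC gene in mice. Its level was 3.36 in gnrh3-/- and 3.15 in WT corticotropes, against 0.817 in gnrh3-/- and 0.744 in WT melanotropes, and the isl1+ cells lay between them with 1.62 in gnrh3-/- and 1.76 in WT. The log2 ratio of corticotropes over melanotropes was 2.04 in gnrh3-/- and 2.08 in WT. The bHLH factor gene neurod1, which acts with it in mice, had 4.46 in gnrh3-/- and 8.50 in WT corticotropes, against 3.01 in gnrh3-/- and 5.03 in WT melanotropes, below 2-fold in each library. The homeobox gene pitx3 was near equal in both types, at 5.09 in gnrh3-/- and 6.42 in WT corticotropes and 5.17 in gnrh3-/- and 6.35 in WT melanotropes. By contrast sox11b, of the SoxC group, had 8.76 in gnrh3-/- and 5.87 in WT corticotropes, against 0.208 in gnrh3-/- and 0.152 in WT melanotropes. The six3b and ascl1a genes were lower in corticotropes than in melanotropes, with log2 ratios of −1.93 in gnrh3-/- and −2.91 in WT for six3b, and −2.76 in gnrh3-/- and −2.65 in WT for ascl1a. Over the list of 37 such factors compared with all other cells, 7 were higher and 9 lower, and the median log2 ratio was −0.53 in gnrh3-/- and −0.17 in WT, or −0.17 in gnrh3-/- and −0.05 in WT with genes at 0 set at the limit of 3 UMIs. The 9 lower ones included pou1f1, isl1, gata2a and nr5a1b, which are known as factors of other pituitary lineages. Over the 19 factors compared with melanotropes, 5 were higher and 3 lower. Counts over this and the other gene lists are to be read beside the shares of all genes. These were 11.6% higher and 8.62% lower against all other cells, and 18.0% higher and 3.84% lower against melanotropes.

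The enzymes that cut and trim pro-opiomelanocortin were not the same in both pomca cell types. The convertase gene pcsk1, whose product cuts out ACTH in mammals, had a level of 0.861 in gnrh3-/- and 1.13 in WT corticotropes, against 0.431 in gnrh3-/- and 0.289 in WT melanotropes. Its log2 ratio was 1.00 in gnrh3-/-, right at the limit, and 1.97 in WT, and in gnrh3-/- it was 0.69 with the total without hormone genes. The convertase gene pcsk2, whose product cuts ACTH further towards alpha-MSH, had 0 UMIs in corticotropes of either library, against levels of 3.56 in gnrh3-/- and 3.34 in WT melanotropes. That is at least 185-fold lower in gnrh3-/- corticotropes and at least 141-fold lower in WT corticotropes. A further convertase gene, furinb, had 1.09 in gnrh3-/- and 1.23 in WT corticotropes, with only 4 UMIs in gnrh3-/- and 2 in WT melanotropes (levels of 0.0594 and 0.0276), and its log2 ratios were 4.19 in gnrh3-/- (counting interval 2.81 to 6.09) and 5.48 in WT (3.61 to 8.54). Its copy furina was near the detection limit in both types, with 15 UMIs in gnrh3-/- and 13 in WT corticotropes. The carboxypeptidase gene cpe was below 2-fold between both types, with 2.93 in gnrh3-/- and 3.30 in WT corticotropes against 2.15 in gnrh3-/- and 2.21 in WT melanotropes. So was scg5, the gene of 7B2, a helper of the PC2 enzyme, with 9.28 in gnrh3-/- and 16.7 in WT corticotropes against 16.7 in gnrh3-/- and 25.6 in WT melanotropes. The amidating enzyme gene pam was also below 2-fold, with log2 ratios of −0.75 in gnrh3-/- and −0.56 in WT. Against all other cells, 5 of 13 genes of this list were higher (pomca, pcsk1, cpe, scg5 and furinb) and 3 lower (pcsk2 and the lysosomal protease genes ctsla and ctsba), with median log2 ratios of 0.38 in gnrh3-/- and 0.29 in WT. Against melanotropes, 2 of 9 were higher and 1 lower.

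Of the secretory granule and vesicle genes, 16 of 33 were higher than in all other cells and 2 lower, with median log2 ratios of 1.07 in gnrh3-/- and 1.1 in WT. The higher ones included syt1a, a calcium sensor of release, with 5.80 in gnrh3-/- and 5.90 in WT corticotropes against 1.16 in other gnrh3-/- and 1.23 in other WT cells, and the membrane fusion gene snap25a. The lower ones were the granin gene chga, with 0.836 in gnrh3-/- and 0.762 in WT corticotropes against 2.51 in other gnrh3-/- and 2.94 in other WT cells, and rab3da. Against melanotropes, 3 of 27 were higher (sv2a, unc13ba and baiap3) and 1 lower (ptprnb), with a median log2 ratio of 0.50 in both libraries, beside 0.42 in gnrh3-/- and 0.45 in WT for all genes.

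The stress axis list held the receptors through which the corticotrope is driven and restrained. The CRH receptor gene crhr1 had 112 UMIs in gnrh3-/- corticotropes (level 0.720) and 109 in WT corticotropes (0.857), against 7 UMIs in gnrh3-/- melanotropes (0.104) and 16 in WT melanotropes (0.221). Its log2 ratio over melanotropes was 2.79 in gnrh3-/- and 1.96 in WT. The glucocorticoid receptor gene nr3c1 had 1.19 in gnrh3-/- and 2.69 in WT corticotropes, against 0.832 in gnrh3-/- and 0.951 in WT melanotropes, with the 2-fold limit passed in WT but not in gnrh3-/-. The mineralocorticoid receptor gene nr3c2, whose product also binds cortisol, had 0.444 in gnrh3-/- and 0.432 in WT corticotropes, against 0.0445 in gnrh3-/- and 0.0827 in WT melanotropes. The gene hsd11b2, for the enzyme that turns cortisol into inactive cortisone, had the highest level of the list. It was at 11.6 in gnrh3-/- and 13.4 in WT corticotropes, 1.14 in gnrh3-/- and 1.19 in WT melanotropes, and 0.111 in other gnrh3-/- and 0.164 in other WT cells. The highest level of hsd11b2 in any other type was 1.23 in gnrh3-/-, and 2.89 in WT, there in the isl1+ cells. After thinning, 82.9% of gnrh3-/- and 89.1% of WT corticotropes had a UMI of hsd11b2, against 18.5% of gnrh3-/- and 16.7% of WT melanotropes. The leptin receptor gene lepr had 38 UMIs in gnrh3-/- and 32 in WT corticotropes, against 2 in gnrh3-/- and 0 in WT melanotropes.

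Those 4 genes (crhr1, nr3c2, hsd11b2 and lepr) were the only ones of 21 in the list that were higher in corticotropes than in all other cells, and 8 were lower, among them the somatostatin receptor genes sstr2a and sstr3 and the galanin receptor gene galr1b, each with 0 UMIs in corticotropes. The same 4 of 8 were higher than in melanotropes, and trhra was lower. Of the 48 genes of this list in the data, only these 8 passed the UMI minimum against melanotropes. The median log2 ratio of the list was −1.25 in gnrh3-/- and −0.62 in WT against all other cells (−0.91 in gnrh3-/- and −0.61 in WT with genes at 0 at the limit), and 1.77 in gnrh3-/- and 1.73 in WT against melanotropes. Genes known in mammals as targets of the glucocorticoid receptor were higher in 6 and lower in 5 of 23 against all other cells, and higher in 5 and lower in 2 of 18 against melanotropes. Their median log2 ratio was 0.73 in gnrh3-/- and 0.60 in WT against all other cells, and 0.63 in gnrh3-/- and 0.73 in WT against melanotropes. The phosphatase gene dusp1 was 2.31 in gnrh3-/- and 1.91 in WT corticotropes, against 0.0891 in gnrh3-/- and 0.0689 in WT melanotropes. The cytokine signalling inhibitor gene socs3a went the other way, with 1.22 in gnrh3-/- and 0.880 in WT corticotropes against 9.06 in gnrh3-/- and 16.1 in WT melanotropes. The co-chaperone gene fkbp5 was close in both types, with 12.4 in gnrh3-/- and 11.6 in WT corticotropes against 11.3 in gnrh3-/- and 9.05 in WT melanotropes, and its direction turned when hormone genes were left out of the total (log2 ratios of −0.18 in gnrh3-/- and −0.03 in WT).

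Of the 11 dopamine receptor genes in the data, 3 could be compared with melanotropes, and 1 was higher and 1 lower in corticotropes. While drd4-rs was high in corticotropes, drd2a, of the D2 type, had 15 UMIs in gnrh3-/- corticotropes (level 0.0964) and 15 in WT corticotropes (0.118), against 0.505 in gnrh3-/- and 0.758 in WT melanotropes. The log2 ratio of drd2a was −2.39 in gnrh3-/- and −2.68 in WT. The gene drd4a was low in both, with 0.251 in gnrh3-/- and 0.197 in WT corticotropes and 0.134 in gnrh3-/- and 0.193 in WT melanotropes. Of the peptide genes, cart4, a member of the cocaine- and amphetamine-regulated transcript family, had 7.28 in gnrh3-/- and 4.72 in WT corticotropes against 1.04 in gnrh3-/- and 1.34 in WT melanotropes. Of 25 peptide genes compared, cart4, gdnfa and grp were higher in corticotropes than in all other cells, and 11 were lower. Over all genes compared, 11.6% were higher and 8.62% lower. Of gdnfa only 5 UMIs in gnrh3-/- and 8 in WT corticotropes were counted. The median log2 ratio of the list was −1.18 in gnrh3-/- and −1.198 in WT with genes at 0 at the limit.

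Downstream of receptors, 10 of 32 G protein, cyclase and cyclic AMP genes were higher and 2 lower than in melanotropes. The median log2 ratio was 0.49 in gnrh3-/- and 0.71 in WT, and against all other cells 9 of 51 were higher and 6 lower. The inhibitory G protein gene gnai2a had 3.15 in gnrh3-/- and 3.17 in WT corticotropes, against 1.08 in gnrh3-/- and 1.14 in WT melanotropes. The signalling regulator gene rgs5b had 4.08 in gnrh3-/- and 4.24 in WT corticotropes, against 0.193 in gnrh3-/- and 0.0413 in WT melanotropes. Genes that break down cyclic AMP were among the higher ones, namely pde3a, pde3b and pde4d. For pde3b the log2 ratio over melanotropes was 1.43 in gnrh3-/- and 1.35 in WT. For pde3a, with 56 UMIs in gnrh3-/- and 36 in WT corticotropes and 1 UMI in melanotropes of each library, it was 4.60 in gnrh3-/- (2.06 to 9.93) and 4.36 in WT (1.79 to 9.70).

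Ion channel genes were higher than in melanotropes in 10 of 17 compared and lower in 1. Their median log2 ratio was 1.34 in gnrh3-/- and 1.28 in WT. Of the 64 genes of this list in the data, only these 17 passed the UMI minimum. A gene high in corticotropes passes it more readily, so the share and the median do not describe the whole list. Against all other cells, 13 of 46 were higher and 5 lower, with a median of 0.54 in gnrh3-/- and 0.53 in WT. The N-type calcium channel gene cacna1ba had 0.437 in gnrh3-/- and 0.55 in WT corticotropes, against 0.0297 in gnrh3-/- and 0.0689 in WT melanotropes. The potassium channel gene kcnd3 had 57 UMIs in gnrh3-/- and 62 in WT corticotropes and 0 in melanotropes of either library. The sodium leak channel gene nalcn and trpc4a were also higher than in melanotropes. The large-conductance calcium-activated potassium channel gene kcnma1a had log2 ratios of 1.86 in gnrh3-/- and 1.46 in WT.

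Adhesion and axon guidance genes were called in both directions. Against melanotropes 16 of 28 were higher and 6 lower, with a median log2 ratio of 1.36 in gnrh3-/- and 2.04 in WT. Of the 76 genes of this list in the data, only these 28 passed the UMI minimum against melanotropes. Against all other cells 22 of 59 were higher and 13 lower. The epithelial adhesion gene epcam had 11.2 in gnrh3-/- and 10.4 in WT corticotropes against 2.73 in gnrh3-/- and 1.94 in WT melanotropes, and the junction genes cldn7b and tjp1b were higher as well. The ephrin gene efnb2a had 3.28 in gnrh3-/- and 3.41 in WT corticotropes against 0.0891 in gnrh3-/- and 0.179 in WT melanotropes. The netrin gene ntn1a had 120 UMIs in gnrh3-/- and 83 in WT corticotropes and 0 in melanotropes. In the opposite direction, the cadherin gene cdh2 had 0.206 in gnrh3-/- and 0.165 in WT corticotropes, against 0.683 in gnrh3-/- and 0.40 in WT melanotropes.

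**Figure D4:**
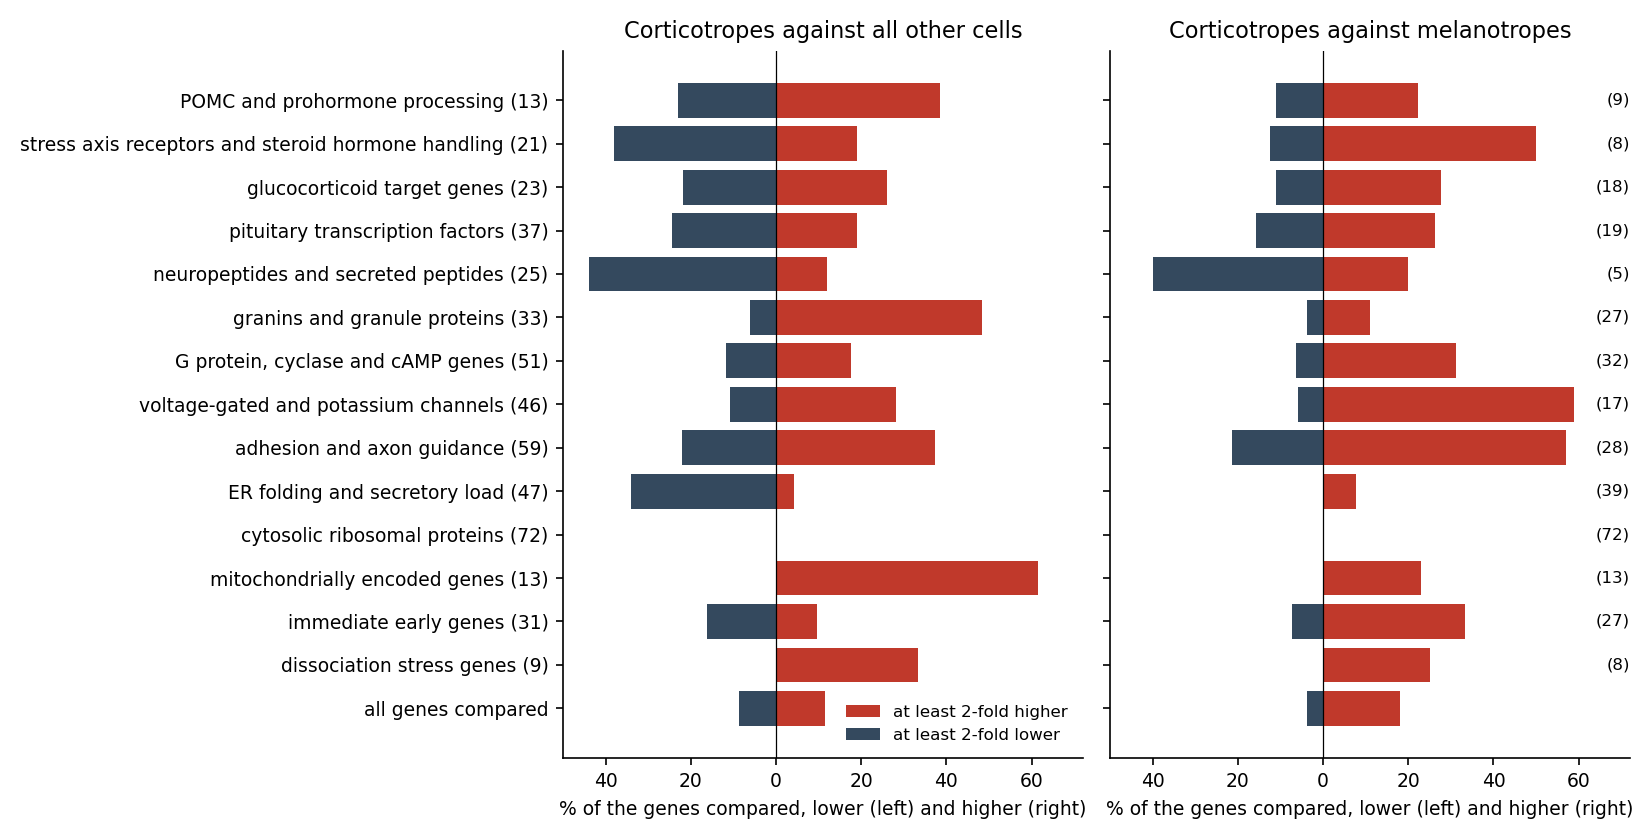
Percent of the genes of each list that were at least 2-fold higher (red, to the right) or lower (dark blue, to the left) in corticotropes in both libraries, against all other cells (left panel) and against melanotropes (right panel). The lists shown are a selection from the 22 lists. Numbers in parentheses are the genes compared, and the lowest row is the share over all genes compared. Over all genes 11.6% were higher and 8.62% lower than in other cells, and 18.0% were higher and 3.84% lower than in melanotropes.

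Genes of protein folding in the endoplasmic reticulum were lower than in all other cells in 16 of 47 members, and 2 were higher. Their median log2 ratio was −0.81 in gnrh3-/- and −0.79 in WT. The chaperone gene hsp90b1 had 0.861 in gnrh3-/- and 0.983 in WT corticotropes, against 2.48 in other gnrh3-/- and 2.51 in other WT cells, and the stress response factor gene xbp1 had 2.55 in gnrh3-/- and 2.92 in WT corticotropes, against 6.92 in other gnrh3-/- and 6.74 in other WT cells. The higher members were creb3l1 and creb3l2, both for membrane-bound transcription factors. Against melanotropes, 3 of 39 were higher and 0 lower, with medians of 0.05 in gnrh3-/- and 0.39 in WT, beside 0.42 in gnrh3-/- and 0.45 in WT for all genes. Of 72 cytosolic ribosomal protein genes none passed the 2-fold limit in both libraries in either comparison, and their median log2 ratio was −0.52 in gnrh3-/- and −0.57 in WT against all other cells. Of the 13 mitochondrially encoded genes 8 were higher and 0 lower than in other cells, with a median of 1.06 in gnrh3-/- and 1.11 in WT. Against melanotropes 3 of 13 were higher and 0 lower, with a median of 0.88 in gnrh3-/- and 0.89 in WT. Their summed level was 265 in gnrh3-/- and 259 in WT corticotropes, and 226 in gnrh3-/- and 216 in WT melanotropes. It was 159 in other gnrh3-/- and 158 in other WT cells, melanotropes included. Of the dissociation stress list, 3 of 9 were higher than in all other cells (hsp70.1, hsp70l and hsp90aa1.2) and 2 of 8 higher than in melanotropes (hspa8 and hsp90aa1.2), and 0 were lower in either comparison. The heat shock gene hsp90aa1.2 was at 29.0 in gnrh3-/- and 38.0 in WT corticotropes against 10.1 in gnrh3-/- and 8.04 in WT melanotropes. The summed level of that list was 109 in gnrh3-/- and 140 in WT corticotropes, against 53.3 in other gnrh3-/- and 52.7 in other WT cells. Of the immediate early genes, 3 of 31 were higher and 5 lower than in all other cells, and 9 of 27 were higher and 2 lower than in melanotropes. The hsp70 copies share sequence, and reads may have been split among them. The part of dissociation in these levels was not tested.

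Between the genotypes the corticotropes could be compared in 4474 genes, with 1 library on each side. In gnrh3-/- corticotropes 30 genes (0.671%) were at least 2-fold higher and 121 (2.70%) at least 2-fold lower than in WT corticotropes, and the median log2 ratio was −0.11. Of the genes called, 19.9% were higher, and 43.8% with TMM, which moved the median of all genes by 0.15. Of the markers of the type, pomca, drd4-rs and tbx19 differed little. The markers neurod1 and pcsk1, with levels given above, were lower in gnrh3-/- corticotropes by less than 2-fold. The ratio of pcsk1 changed sign after thinning. The log2 ratio of gnrh3-/- over WT was 0.06 for pomca (counting interval 0.05 to 0.07), 0.19 for drd4-rs (0.05 to 0.34), 0.09 for tbx19 (−0.10 to 0.28) and −0.22 for hsd11b2 (−0.31 to −0.12). For crhr1 it was −0.25 (−0.64 to 0.14) and for nr3c2 0.04 (−0.50 to 0.58). The gad2 gene was lower in gnrh3-/- corticotropes, with a log2 ratio of −1.29 (−1.44 to −1.13), and nr3c1 too, with −1.18 (−1.44 to −0.91).

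The 10 genes that were lowest in gnrh3-/- corticotropes relative to WT were led by nr4a3, an orphan nuclear receptor gene that answers quickly to stimulation. It had a level of 0.437 in gnrh3-/- and 2.26 in WT corticotropes, a log2 ratio of −2.37 (−2.77 to −1.98). Second was zgc:113162, with 0.469 in gnrh3-/- and 2.22 in WT. Then came gch2, for a GTP cyclohydrolase of pteridine synthesis, with 0.797 in gnrh3-/- and 3.16 in WT, and the cytidine deaminase gene cdab, with 0.276 in gnrh3-/- and 1.19 in WT. The calcium-binding protein gene cabp5a had 0.482 in gnrh3-/- and 1.83 in WT, and pdk2b, for a kinase that holds back pyruvate dehydrogenase, had 2.31 in gnrh3-/- and 7.04 in WT. The others were soul2, zfand5b, the clock-related repressor gene bhlhe40 and the AP-1 gene fosl2, with log2 ratios of −2.19, −1.74, −1.75 and −1.67. Across the 25 immediate early genes compared, 5 were lower (fosl2, egr3, nr4a1, nr4a3 and atf3), 0 higher, and the median log2 ratio was −0.39. Over all genes compared, 2.70% were lower and 0.671% higher. The immediate early list was not uniform, since egr1 had 13.4 in gnrh3-/- and 11.4 in WT, and fosab had 16.5 in gnrh3-/- and 13.8 in WT. A gene below the limit of 20 UMIs, and chosen after its values were seen, was nr4a2b, with 5 UMIs in gnrh3-/- and 186 in WT corticotropes.

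Of the 10 genes highest in gnrh3-/- corticotropes relative to WT, 5 are hormone genes of other pituitary types, namely smtlb, prl, CGA, lhb and gh1. The somatolactin gene smtlb had a level of 76.7 in gnrh3-/- and 0.385 in WT corticotropes, the prolactin gene prl 40.4 in gnrh3-/- and 2.52 in WT, and the growth hormone gene gh1 116 in gnrh3-/- and 39.4 in WT. A few cells carried the counts of smtlb, prl and gh1. The 13 gnrh3-/- corticotropes with over 5% of another hormone held 98.8% of the smtlb UMIs, 90.9% of the prl UMIs and 92.5% of the gh1 UMIs, and 1 cell alone held 68.9% of smtlb. These 13 cells held 1.98% of the lhb UMIs and 4.41% of the CGA UMIs, while 1 gnrh3-/- corticotrope held 38.0% of CGA. In WT the 2 mixed cells held 90.7% of the gh1 UMIs. Without these cells the log2 ratio of gnrh3-/- over WT was 1.50 for smtlb, 0.71 for prl and 1.42 for gh1, against 7.64, 4.01 and 1.56 with them. For gh1 it was 0.49 with the mean of per-cell levels and 0.48 after thinning, both below the 2-fold limit. For lhb 1 gnrh3-/- cell held 65.7% and for grn1, a granulin gene, 79.4% of the UMIs, and for phlda2 the cell with the most held 44.9% in gnrh3-/- and 52.4% in WT. Without the cell with the most UMIs in each library, a setting chosen after seeing the data, the log2 ratio was 1.2 for lhb, 1.1 for grn1 and 2.27 for phlda2, against 2.39, 2.69 and 2.06 with it. The empty barcodes held more prl in the gnrh3-/- library, with a level of 245 there and 163 in the WT library. Per empty barcode there were 1.21 UMIs of prl in gnrh3-/- and 0.449 in WT, and 3.44 of gh1 in gnrh3-/- and 1.52 in WT. The median corticotrope had 4.5 UMIs of gh1 in gnrh3-/- and 2 in WT. With an estimate of free RNA subtracted and the mixed cells kept, the log2 ratio was 8.41 for prl, 4.76 for grn1 and 1.68 for gh1. Free RNA was estimated at 1.48% of the UMIs of WT corticotropes, with a prl level of 163. That is close to all of their prl level of 2.52, so the ratio of 8.41 rests on very little WT prl. For smtlb and lhb the subtraction left 0 UMIs in WT corticotropes, and the log2 ratio was at least 11.66 for smtlb and at least 7.08 for lhb, with 3 UMIs as the limit. Without the mixed cells the count over all genes was 35 higher and 129 lower.

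Not so concentrated were glipr1b, with 1.18 in gnrh3-/- and 0.204 in WT corticotropes, the MHC class I gene mhc1uba, with 3.09 in gnrh3-/- and 0.652 in WT, and ndnfl, with 0.611 in gnrh3-/- and 0.157 in WT. The cell with the most UMIs held 9.78% of glipr1b, 3.75% of mhc1uba and 5.26% of ndnfl in gnrh3-/-. MHC class I genes have near copies, so that the reads of mhc1uba may be split. Of the other lists, 3 of 18 pituitary transcription factors compared were lower in gnrh3-/- corticotropes (insm1b, nr4a1 and nr4a3) and 0 higher. The genes nr4a1 and nr4a3 are also counted among the immediate early genes above. In addition 2 of 15 channel genes were lower (kcnn3 and kcnc1a) and 2 of 27 granule genes (vgf and rims2a). Of 16 glucocorticoid targets zbtb16a was higher and pdk2b lower. Over all genes compared, 2.70% were lower and 0.671% higher, and counts this small describe single genes, not the lists. None of 37 folding genes, 71 ribosomal protein genes, 21 adhesion genes or 13 mitochondrial genes passed 2-fold.

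**Figure D5:**
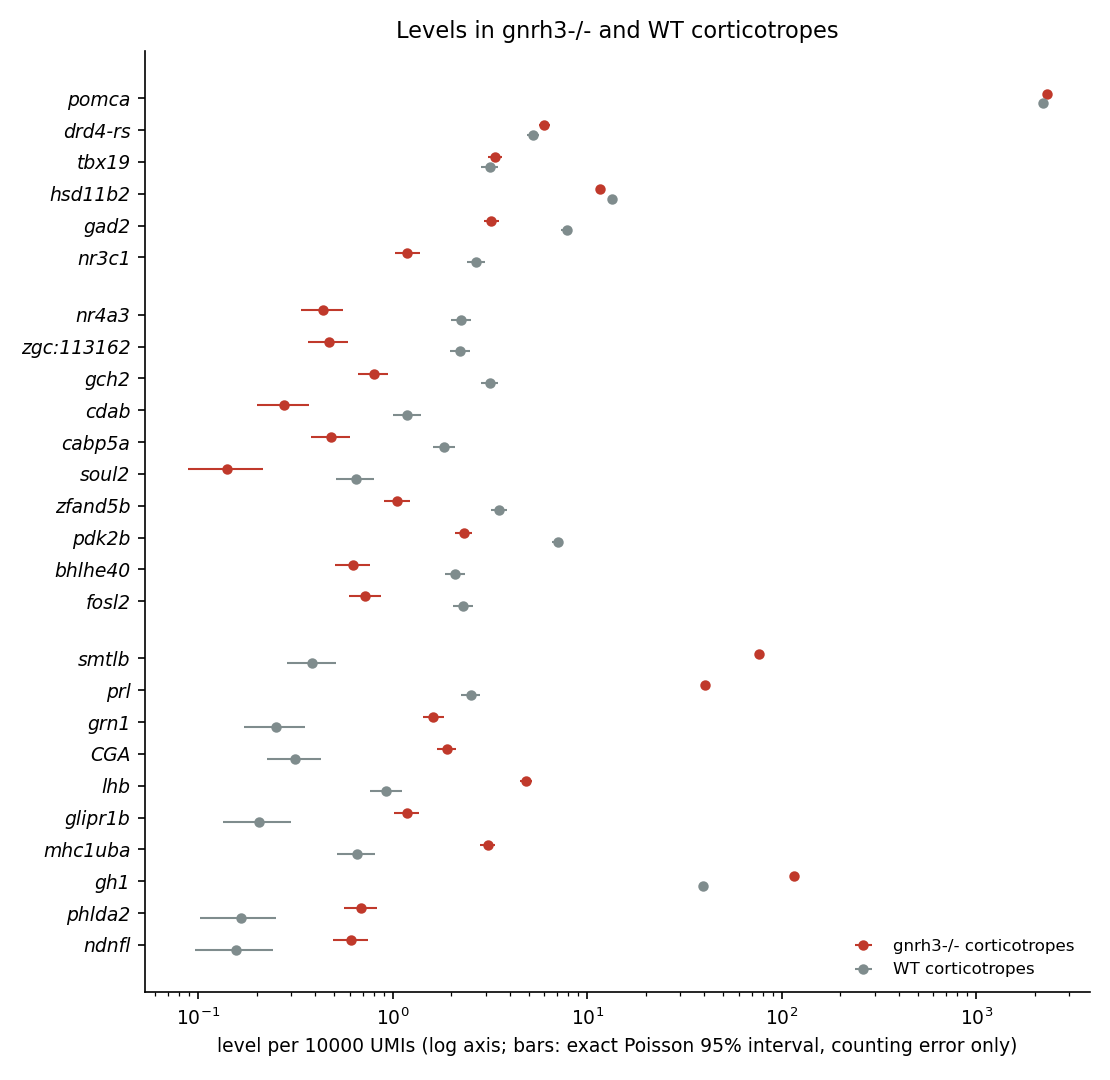
Level per 10000 UMIs (log axis) in gnrh3-/- corticotropes (red) and WT corticotropes (grey) of 6 genes of the corticotropes (top), the 10 genes lowest in gnrh3-/- relative to WT (middle) and the 10 highest (bottom). Points are the level in the 1 library of each genotype and bars the exact Poisson 95% interval, which covers counting error only. The points of pomca, drd4-rs and tbx19 lie close together, those of nr4a3 at 0.437 and 2.26, and those of smtlb at 76.7 and 0.385.

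Corticotropes also varied among themselves. Over 1230 genes with at least 100 corticotrope UMIs in each library, an index of spread (the Pearson chi-square of the counts over cells, given each cell's depth, divided by its degrees of freedom, near 1 for counting error alone) had a median of 1.18 in gnrh3-/- and 1.26 in WT. At a given relative spread this index grows with the UMIs of a gene per cell. It thus does not rank genes of unlike level by how uneven they are. The gene pomca had an index of 118.2 in gnrh3-/- and 101.3 in WT, with a median of 986 UMIs per cell in gnrh3-/- and 1406.5 in WT. For si:dkey-14d8.6 the index was 23.5 in gnrh3-/- and 61.7 in WT, and for hsp90aa1.2 19.6 in gnrh3-/- and 49.2 in WT. For cart4 it was 14.4 in gnrh3-/- and 12.3 in WT, and for egr4 10.2 in gnrh3-/- and 17.5 in WT. The growth hormone gene gh1 had the highest index, at 1503 in gnrh3-/- and 1404 in WT, with its counts held by few cells, as described for the mixed cells. The share of si:dkey-14d8.6 per cell had a median of 0.789% in gnrh3-/- and 1.28% in WT corticotropes and ranged up to 4.75% in gnrh3-/- and 6.66% in WT.

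Some of these genes went together from cell to cell. At 2000 UMIs per cell, in 258 gnrh3-/- and 183 WT corticotropes, the Spearman rho of hsp70.3 with hsp90aa1.2 was 0.58 in gnrh3-/- and 0.72 in WT. The rho of hsp90aa1.2 with rasd1 was −0.33 in gnrh3-/- and −0.57 in WT. Cells with more heat shock RNA thus tended to have less rasd1. For pomca with si:dkey-14d8.6 the rho was 0.03 in gnrh3-/- and 0.36 in WT. The cells of a library share its pool, its dissociation and its depth, and these values are descriptions with no p.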

How the data were processed

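Per the labels and the methods of the study, the authors counted reads with Cell Ranger 6.0.2 on GRCz11, limited to protein-coding genes, filtered cells by UMIs, genes and mitochondrial share, and clustered both libraries together with Seurat 4. They deposited UMI counts, without normalization, for 25432 genes with the type of each cell, and these counts and types were used as deposited. In the cells kept, 0 entries differed between the filtered and the unfiltered matrices. Of the 14 types, 1 and its marker are left out of the text. UMIs were summed per type and library. Log2 ratios of levels have exact conditional binomial intervals, levels exact Poisson and shares of cells Clopper-Pearson intervals, all at 95% and for counting error only. With 1 library per genotype no test was run and no p-value was computed. Over all barcodes, 38809315 UMIs were counted in the gnrh3-/- library, 85.6% of them in cells, and 25405369 in the WT library, 86.5% of them in cells. Both libraries shared 1 cell barcode, which was no corticotrope. Cells were thinned without replacement to 2000 UMIs where stated.

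Genes were named by rule: the markers pomca and drd4-rs; members of 22 gene lists by role; by the counting interval's distance from 0, the 20 genes highest against all other cells, the 20 highest and 20 lowest against melanotropes and the 10 highest and 10 lowest between genotypes; the 15 genes farthest above the next type; and the 5 most like drd4-rs by Pearson r of log2(level + 0.1). The rules of the next type and of drd4-rs took only genes with at least 20 corticotrope UMIs in each library. The members and lists were chosen with earlier results of these data known. Of 770 list entries, 730 were in the gene table. Alternatives were the mean of per-cell levels, a total without 10 hormone genes, TMM scaling (edgeR 4.0.16, R 4.3.3), subtraction of free RNA, leaving out mixed or shallow cells, a minimum of 5 UMIs per gene, thinning, equal weight of the other types and a 1.5-fold limit. For the ratios between genotypes, dropping in each library the single cell richest in a gene was added after the data had been seen. Ratios and calls were checked on counts simulated with counting error only. The genes changed in that check were changed by more than the 2-fold limit and lay well above the UMI minimum. Changes near either limit and spread between cells were not covered. Python 3.11.15, numpy 2.4.6, scipy 1.17.1, pandas 2.3.3 and matplotlib 3.10.9 were used. No sequences are shown, as none were among the references used here.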

Additional observations from a re-analysis of the deposited data

Results flagged for a closer look

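Among the genes named by rule, 3 had a ratio of corticotropes over the cells they were set against whose counting interval lay above 0 in one library and below 0 in the other. For bhlhe40 the log2 ratio of corticotropes over all other cells was −0.83 in the gnrh3-/- library and 0.20 in the WT library. The WT value of bhlhe40 was below 0 as well with the mean of per-cell levels (−0.19), with TMM (−0.16) and with equal weight of the other types (−0.97). For ndnfl the log2 ratio of corticotropes over melanotropes was 0.97 in the gnrh3-/- library and −1.24 in the WT library. For vgf, the gene of a granule peptide precursor, the log2 ratio over all other cells was −1.62 in the gnrh3-/- library and 0.76 in the WT library. With 1 library per genotype these differences were not tested.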

How the results depend on the processing

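No paired analysis was possible because there was 1 library per genotype, and for the same reason no replicate could be left out. Against all other cells (1587 higher, 1177 lower), 1025 genes were higher and 1781 lower with the mean of per-cell levels, 1000 and 1774 with TMM, 981 and 1845 with equal weight of the other types, and 768 were higher after thinning. Against melanotropes (1024 higher, 219 lower), 704 were higher and 346 lower with the total without hormone genes, and 826 and 282 with TMM. With a minimum of 5 UMIs 1379 were higher and 604 lower, and after thinning 513 were higher and 79 lower. Between genotypes (30 higher, 121 lower), 47 were higher with the mean of per-cell levels, 57 with TMM (73 lower), 232 with a minimum of 5 UMIs (647 lower) and 16 after thinning (47 lower). The cause was not tested, save that thinning and the lower minimum change how many genes are compared. At a 1.5-fold limit 164 list members were lower than in all other cells, and between genotypes 19 were higher and 40 lower. The pomca log2 ratio of corticotropes over melanotropes stayed negative: in gnrh3-/- it was −0.70 with per-cell means and after thinning, −1.05 with the total without hormone genes, −0.71 without mixed cells and −0.92 with TMM, and in WT −0.86 with per-cell means, after thinning and without mixed cells, −1.26 with the total without hormone genes, −0.87 with free RNA subtracted and −1.13 with TMM. That pomca ratio was past the 2-fold limit in both libraries with the total without hormone genes, and in WT with TMM. Thinned to 1000 UMIs, 48.2% of gnrh3-/- and 44.1% of WT corticotropes had a UMI of drd4-rs, 27.7% and 26.9% of gnrh3-/- and WT ones of tbx19, and 24.1% and 38.7% of gad2.

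Among all values recomputed, 22 changed sign. With the total without hormone genes these were the ratios over melanotropes of SERP1 in WT (−0.13), fkbp5 in gnrh3-/- (−0.18) and WT (−0.03), gh1 in gnrh3-/- (−0.0882) and lhb in gnrh3-/- (−0.0279). With TMM they were those of SERP1 in WT (−0.0041) and fkbp5 in gnrh3-/- (−0.0488), SERP1 between genotypes (0.0325) and bhlhe40 over all other cells in WT (−0.16). With per-cell means they were bhlhe40 over all other cells in WT (−0.19), nr4a3 over all other cells in gnrh3-/- (−0.0927) and gh1 over melanotropes in gnrh3-/- (−0.82). With equal weight of the other types they were bhlhe40 in WT (−0.97), and gch2 (−0.58) and nr4a3 (−0.88) in gnrh3-/-. After thinning they were nr4a3 over all other cells (−0.0072) and gh1 over melanotropes (−0.56) in gnrh3-/-, and SERP1 (0.0151), pcsk1 (0.0114) and si:dkey-248g15.3 (0.16) between genotypes. Without mixed cells gh1 over melanotropes was −0.0714 in gnrh3-/-. With free RNA subtracted no lhb UMI was left in WT corticotropes, and lhb over melanotropes was at most −2.67 in WT, with 3 UMIs as the limit. Genes with under 20 UMIs are beyond the reach of these libraries, and every interval leaves out the spread between fish.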
